A study of Mus musculus with 12 samples.

Results

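The miRNAs examined here are those best known from tissues other than muscle: mmu-miR-200a, mmu-miR-200b, mmu-miR-200c, mmu-miR-141 and mmu-miR-429 from epithelia, mmu-miR-9 and mmu-miR-124 from nervous tissue, mmu-miR-122 from liver and mmu-miR-375 from pancreatic islets. They were picked by name, with starred names kept apart, and all 9 were found among the 1096 miRNA names of the array table. The array held probes for mouse miRBase version 17 and was hybridized with quadriceps RNA of 12 mice of strain C57Bl/6 at postnatal day 7. Of these mice, 6 were cofilin-2 null (KO1 to KO6) and 6 were wild-type (WT1 to WT6). Cofilin-2 is an actin-severing protein of muscle, and it cannot be checked on a miRNA array; the labels give no further detail of the null allele, and the methods describe the mice as littermate pairs. All WT samples carry the label Cy5 and all KO samples Cy3, so that genotype and dye cannot be told apart in any comparison of the groups.

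A miRNA is a short RNA that guides silencing proteins to messenger RNAs, mainly through its seed, which spans bases 2 to 8. The miR-200 family keeps epithelial cells epithelial by repressing Zeb1 and Zeb2. miR-9 and miR-124 are abundant in brain and act in neuronal differentiation, miR-122 dominates the miRNAs of hepatocytes, and miR-375 acts in islet cells, where it restrains insulin secretion. Whole muscle also holds nerve branches, vessels, blood and connective tissue, and in such a bulk sample fewer cells of a type cannot be told apart from less RNA per cell.

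The mature sequences are shown because the 5 epithelial miRNAs are close relatives and form their own seed groups. They were read from the RefSeq table of GRCm38.p6, which held 6 of the 9 members, with the seed in capitals:

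mmu-miR-200b, chr4:156055685-156055706, minus strand: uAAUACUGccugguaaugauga

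mmu-miR-200c, chr6:124718324-124718346, minus strand: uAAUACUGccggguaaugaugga

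mmu-miR-429, chr4:156053916-156053937, minus strand: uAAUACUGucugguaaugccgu

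mmu-miR-200a, chr4:156054911-156054932, minus strand: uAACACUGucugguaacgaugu

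mmu-miR-141, chr6:124717917-124717938, minus strand: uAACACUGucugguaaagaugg

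mmu-miR-9, from 3 hairpins, Mir9-1 at chr3:88215613-88215635, Mir9-2 at chr13:83738821-83738843 and Mir9-3 at chr7:79505279-79505301, all on the plus strand: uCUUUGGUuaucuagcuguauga

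The first 3 share one seed, and miR-200a and miR-141 share the other. Over 22 aligned positions miR-200a differed from miR-141 at 2, and miR-200b from miR-200c at 2, and whether the probes tell such pairs apart was not tested. The hairpins of miR-200b, miR-200a and miR-429 lie within 1846 bases of one another on chr4, and those of miR-200c and miR-141 within 477 bases on chr6. In the annotation, the chr4 members overlap the gene model Gm13648, Mir9-3 lies in its host gene Mir9-3hg, and Mir9-2 in C130071C03Rik. miR-124, miR-122 and miR-375 are named without a sequence.

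All 9 members lay below the median name of the array by mean intensity. The share of names dimmer than a member ran from 3.47% for miR-9 to 42.7% for miR-124. The lowest mean intensity over the 12 samples was 2.33, for miR-9, and the highest was 10.2, for miR-124, whereas the medians of the 12 samples lay at 12 to 14. A mean intensity of 32 was used as the limit of dim names: 370 of the 1096 names (33.8%) reached it, and 0 of the 9 members did. Of the 108 member values, 107 were 16 or lower and 1 was above 32. In all, 91.7% of member values were 10 or lower, against 44.7% of all values in the table, and 8.33% were 0, against 1.67% of all values. Only 2 of the 108 were above the median of their own sample, and 79 (73.1%) were at or below its 25th percentile, where 27.7% of all values fell. At this signal the members were not detectable above the dim range of the array, which does not show that they were absent. The brightness of different probes cannot be compared as abundance, so these values place each probe in the range of the array and give no order of the miRNAs.

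**Figure D1:**
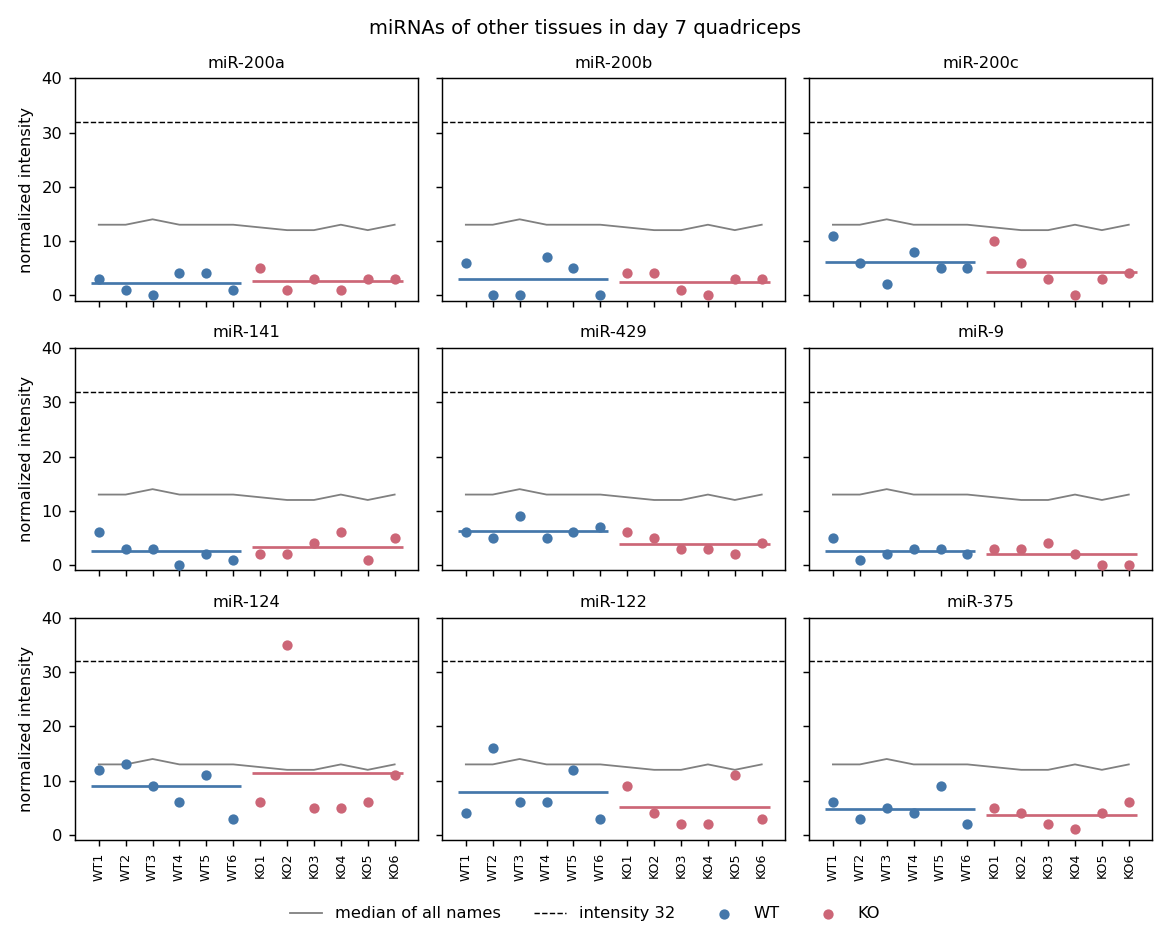
Normalized intensity of each of the 9 miRNAs (linear axis) in the 6 WT and 6 KO samples; points are samples, coloured bars are group means, the grey line is the median of all 1096 names in each sample and the dashed line is an intensity of 32. Points above the grey line are miR-122 in WT2 at 16 and miR-124 in KO2 at 35, miR-124 in WT2 lies on it at 13, and the other points lie below it.

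The check of the tissue gave bright signals for muscle miRNAs on the same arrays. miR-206, a miRNA of skeletal muscle, had mean intensities of 24991 ± 2061 in WT and 23645 ± 2808 in KO (SD, n = 6 each). miR-133a, which acts in myoblast proliferation and differentiation, had 9060 ± 2410 and 7147 ± 2194 (SD, n = 6 each), and miR-133b 8320 ± 2215 and 6499 ± 2240 (SD, n = 6 each). Of the 8 muscle names listed, 5 had a row under that exact name, and 2 of the 5, miR-208b and miR-499, were dim in all 12 samples. Each sample summed to between 594311 and 636136, and KO1 stood apart from the rest, with a mean correlation of 0.848 with the other KO samples, against 0.907 to 0.945 for KO2 to KO6 and 0.949 to 0.970 among WT. An array has no counts, and the precision is set by the 6 mice of a group.

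Among the miR-200 family, miR-200a had intensities of 3, 1, 0, 4, 4 and 1 in WT1 to WT6 and of 5, 1, 3, 1, 3 and 3 in KO1 to KO6. miR-200b, its neighbour on chr4, had 6, 0, 0, 7, 5 and 0 in WT and 4, 4, 1, 0, 3 and 3 in KO, with 4 values at 0. The groups overlapped for both, and no sample stood out. miR-429, the third hairpin of that cluster, had 6, 5, 9, 5, 6 and 7 in WT and 6, 5, 3, 3, 2 and 4 in KO. Here 4 of the 6 KO samples, KO3 to KO6, were below every WT sample. On chr6, miR-200c had 11, 6, 2, 8, 5 and 5 in WT and 10, 6, 3, 0, 3 and 4 in KO. miR-141 had 6, 3, 3, 0, 2 and 1 in WT and 2, 2, 4, 6, 1 and 5 in KO. miR-200c was highest in WT1 and KO1, and miR-141 in WT1 and KO4, with the groups overlapping for both. None of the 5 exceeded the median of its own sample in any mouse.

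For the neural miRNAs, miR-9 had 5, 1, 2, 3, 3 and 2 in WT and 3, 3, 4, 2, 0 and 0 in KO, so that every value was 5 or lower. miR-124 had 12, 13, 9, 6, 11 and 3 in WT and 6, 35, 5, 5, 6 and 11 in KO. The value of 35 in KO2 was the one member value at or above 32, and the KO mean of 11.3 ± 11.8 (SD, n = 6) became 6.60 ± 2.51 (SD, n = 5) without that mouse. Its partner from the other arm of the hairpin, miR-124*, was at 3 in KO2, and its own high value of 33 was in KO4, where miR-124 was at 5. The high values of the 2 arms were thus in different mice. miR-9 was at 3 in KO2. Of the further neural names listed below, miR-129-5p had its highest value in KO2, at 39, and so had miR-153, at 22, with 21 in WT1. The other names of that list were highest in other samples. Whether these values share a source was not tested.

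miR-122, the hepatocyte miRNA, had 4, 16, 6, 6, 12 and 3 in WT and 9, 4, 2, 2, 11 and 3 in KO. The highest values were in WT2, WT5 and KO5, and both groups had mice at 3 or lower. For the islet miRNA miR-375 the values were 6, 3, 5, 4, 9 and 2 in WT and 5, 4, 2, 1, 4 and 6 in KO, again with overlapping groups. Summed over the 9 members, intensities ran from 24 to 59 in WT, with a median of 45.5, and from 20 to 64 in KO, with a median of 36. The sum of 64 was in KO2 and held the 35 of miR-124.

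KO and WT were compared to learn whether any of these traces changed with the loss of cofilin-2. With log2 values and limma over the 370 names that reached a mean intensity of 32, 5 names (1.35%) passed an adjusted p of 0.05, and the 9 members were below the filter and not tested. That count of 5 was 49 without KO1, 11 without WT4, 8 without KO4, 3 without WT3 or without KO2, and 115 with array weights. In a fit over all 1096 names, 123 names (11.2%) had an unadjusted p under 0.05, as had 62 of the 726 dim names (8.54%). Of the 9 members 1 did, miR-429, a share of the members near these backgrounds. By the exact permutation test of each name, 120 of 1096 (10.9%) passed unadjusted, and again miR-429 was the 1 member. The median log2 change, KO minus WT, was -0.22 over the 9 members, with 6 lower and 3 higher, and -0.09 over the 726 dim names.

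For miR-429 the WT mean was 6.33 ± 1.51 and the KO mean 3.83 ± 1.47 (SD, n = 6 each), a log2 change of -0.79 (95% interval -1.42 to -0.15; two-sided exact permutation test, p = 0.0260, unadjusted). Adjusted over all 1096 names it did not pass (limma, adjusted p = 0.320), and both means lay under the median of every sample. With every value under 32 raised to 32 its change was 0, and with quantile normalization or cyclic loess over all names the unadjusted p was 0.0887 and 0.0554.

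The other 8 members had exact p-values of 0.268 for miR-122 up to 0.957 for miR-200b. Their 95% intervals of the log2 change reached from -1.79 to 0.41 for miR-122 and from -1.69 to 0.49 for miR-200c. For miR-375 the interval was -1.44 to 0.53 and for miR-9 -1.16 to 0.72. It was -1.01 to 1.12 for miR-124, -1.39 to 1.21 for miR-200b, -0.85 to 1.35 for miR-200a and -0.74 to 1.46 for miR-141. Changes of 1 on the log2 scale, in at least one direction, thus lay within each of the 8 intervals. At this signal the intervals describe the intensities and set no limit on a change of the miRNAs. The median spread of a member within a group was 0.988 on the log2 scale, against 0.724 for the other dim names and 0.548 for the names that reached 32.

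**Figure D2:**
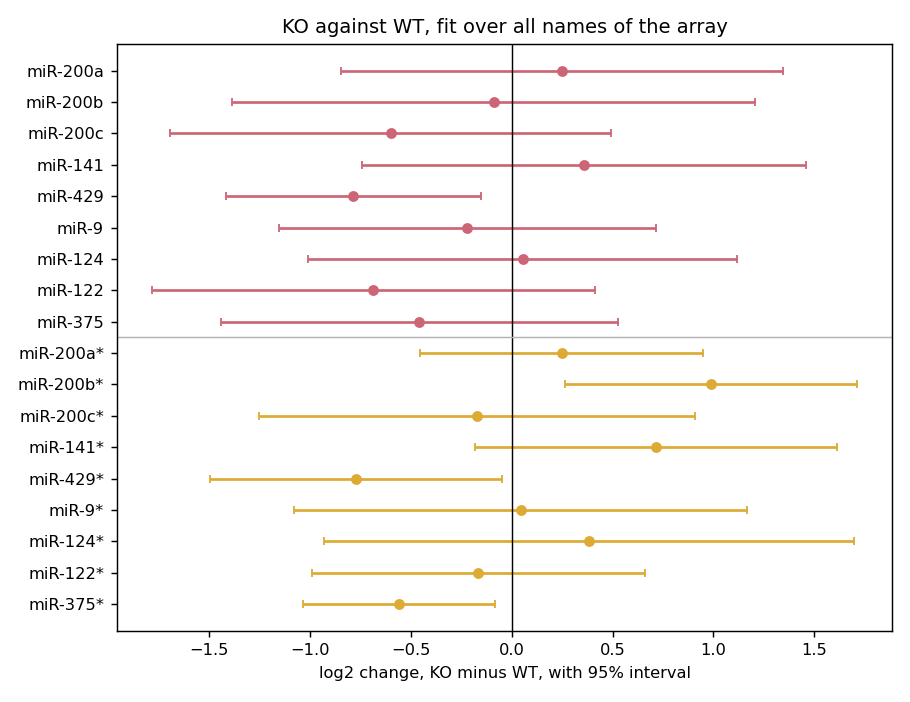
Log2 change, KO minus WT, of the 9 members (red, above the line) and of the starred partners from the same hairpins (yellow), from limma over all 1096 names; points are estimates and bars 95% intervals. Most bars cross 0. Those of miR-429, miR-200b*, miR-429* and miR-375* do not, and none of these 4 passed after adjustment over all names. By limma, 11.2% of all 1096 names had an unadjusted p under 0.05.

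The starred names are the partner strands of the same hairpins and were not used to choose the members. All 9 were on the array, and their mean intensities ran from 2.75 for miR-9* to 15.3 for miR-375*, so that 0 of 9 reached 32. Of their 108 values, 107 were under 32, 18 were above the median of their sample and 48 were at or below its 25th percentile. By limma over all names, 2 of the 9 had an unadjusted p under 0.05 with lower values in KO, and 1 with higher values. In both directions together, 11.2% of all names and 8.54% of the dim names had such a p. By the exact permutation test 2 of the 9 passed unadjusted, against 10.9% of all names. miR-200b* had 17, 9, 5, 7, 6 and 4 in WT and 13, 22, 16, 13, 12 and 11 in KO, a log2 change of 0.99 (95% interval 0.26 to 1.71; exact permutation test, p = 0.0195, unadjusted; limma, adjusted p = 0.270). The groups overlapped through WT1 alone. miR-429* had 8, 3, 4, 5, 5 and 6 in WT and 4, 6, 2, 3, 2 and 2 in KO, a log2 change of -0.77 (95% interval -1.50 to -0.05; exact permutation test, p = 0.0606). The chr4 cluster, which lies on one strand, therefore held a partner strand with higher values in KO and another with lower values, while the members miR-200b and miR-200a had log2 changes of -0.09 and 0.25. Whether these changes differ from one another was not tested.

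miR-375* was the partner strand in which the groups did not overlap. It is shown with its seed in capitals because of this difference, and lies at chr1:74900696-74900717 on the minus strand of GRCm38.p6:

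mmu-miR-375*: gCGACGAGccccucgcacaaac

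Its intensities were 16, 23, 16, 18, 16 and 20 in WT1 to WT6 and 14, 12, 9, 14, 13 and 12 in KO1 to KO6, means of 18.2 ± 2.86 and 12.3 ± 1.86 (SD, n = 6 each). Every KO sample was below every WT sample, as was the case for 5 of the 1096 names (0.456%). The log2 change was -0.56 (95% interval -1.04 to -0.08), and the exact permutation test gave p = 0.0022, the smallest that 6 samples against 6 allow. After adjustment over all names it did not pass (limma, adjusted p = 0.378). The gap between the groups was from 14 to 16 on the linear scale, within the dim range of the array, and miR-375 itself overlapped between the groups. The dye differed with the genotype, so that dye and genotype cannot be told apart in this difference.

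Further miRNAs of the same tissues were taken from fixed lists. Of 12 further epithelial names 8 were under a mean of 32 and 4 reached it, with miR-182 at 166.3 ± 62.0 in WT and 168.3 ± 118 in KO, miR-215 at 55.2 ± 24.1 and 64.7 ± 39.2, miR-192 at 36.5 ± 7.15 and 40.3 ± 6.65, and miR-31 at 35.5 ± 14.7 and 36.5 ± 29.4 (SD, n = 6 each). miR-182 belongs to a cluster with miR-183 and miR-96 that is known from sensory cells, and those 2 stayed at mean intensities under 7 in both groups. miR-203 and miR-205, markers of skin and other stratified epithelia, had 8.0 ± 4.24 and 4.0 ± 1.79 in WT and 10.7 ± 4.97 and 4.67 ± 2.16 in KO (SD, n = 6 each). By limma none of the 12 had an unadjusted p under 0.05, over all names, in either direction.

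Of 13 further neural names 12 had a row, and 2 of them reached 32. miR-128, enriched in brain and also present in muscle, had 1283 ± 244 in WT and 919.5 ± 206 in KO (SD, n = 6 each). Its log2 change was -0.49 (exact permutation test, p = 0.0260), with WT values of 865 to 1508 and KO values of 699 to 1205. By limma its adjusted p was 0.220 over the 370 names that reached 32 and 0.498 over all 1096 names. miR-132, induced by neuronal activity, had 45.3 ± 10.5 and 43.0 ± 12.9, and miR-129-5p, below the limit, 16.8 ± 4.12 and 22 ± 10.6 (SD, n = 6 each). The glial miRNAs miR-338-3p and miR-219-5p, of oligodendrocytes, were at 6 or lower and at 9 or lower in every sample. Of 4 further liver names 3 had a row, and beside miR-192 they were miR-194, with 10.8 ± 5.74 and 15.8 ± 5.0, and miR-802, with 1.67 ± 1.63 and 0.50 ± 0.837 (SD, n = 6 each). None of the 5 further endocrine names exceeded a mean of 5.25 over the 12 samples; the 3 brightest were miR-217, miR-184 and miR-216a.

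Of the 2 endothelial names 1 reached 32, and of the 6 blood names 1. miR-126-3p, made in endothelium, had 3568 ± 1008 in WT and 1629 ± 718 in KO (SD, n = 6 each). Its log2 change was -1.20, with a 95% interval of -1.91 to -0.49 in the fit over all names. The exact permutation test gave p = 0.0108, unadjusted. Its adjusted p by limma was 0.0615 over the 370 names that reached 32 and 0.220 over all 1096 names. miR-126-5p was dim, with a mean of 3.58 over the 12 samples. For blood, miR-451 of red cells ranged from 43 to 417 in WT and from 16 to 318 in KO, and the next brightest of the 6 blood names were miR-150, of lymphocytes, with 28.7 ± 11.6 and 33.8 ± 10.9, and miR-223, of myeloid cells, with 10.5 ± 2.43 and 8.0 ± 4.86 (SD, n = 6 each). The other 3 blood names were as dim as the members, with means over the 12 samples of 6.5 for miR-142-5p, 2.58 for miR-142-3p and 2.17 for miR-144.

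**Figure D3:**
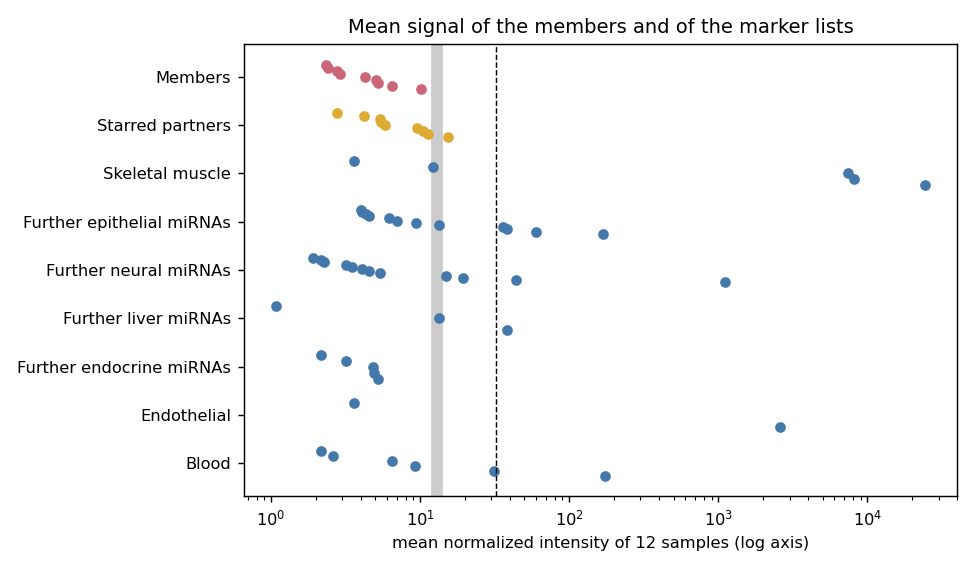
Mean normalized intensity over the 12 samples (log axis) of each name of the members, their starred partners and the marker lists; each point is a name, the grey band is the range of the sample medians and the dashed line is an intensity of 32. The members lie between 2.33 and 10.2, left of the band, whereas 3 muscle names, 1 endothelial and 1 blood name and some names of the further epithelial, neural and liver lists lie right of the line.

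The base composition of the members was set against the dim names of the array. The 6 members with a sequence had a GC content of 34.8% for miR-9 to 43.5% for miR-200c. Of the 726 dim names 604 (83.2%) could be given a GC content from RefSeq, and across these names, which are not independent, GC content and mean intensity had a Spearman's rho of 0.57, as a description. The 173 dim names with 36 to 44% GC had a median of the mean intensities of 4.17 (quartiles 2.92 and 6.67), and the 225 with 52% or more had 12.5 (quartiles 8.17 and 18.5). The 5 epithelial members fell in the first of these ranges, at 2.42 for miR-200a, 2.75 for miR-200b, 2.92 for miR-141, 5.08 for miR-429 and 5.25 for miR-200c. miR-9, at 2.33, fell with the 40 names under 36% GC, whose median was 3.29 (quartiles 2.56 and 4.73). miR-9, miR-200a and miR-200b were below the lower quartile of their range, and miR-141, at 2.92, was next to it. The GC content of these members was exact, whereas names without an exact match were given the mean of both arms. miR-375*, with 68.2% GC, had a mean of 15.3. The part of base composition in the low signal of the members was not tested.

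**Figure D4:**
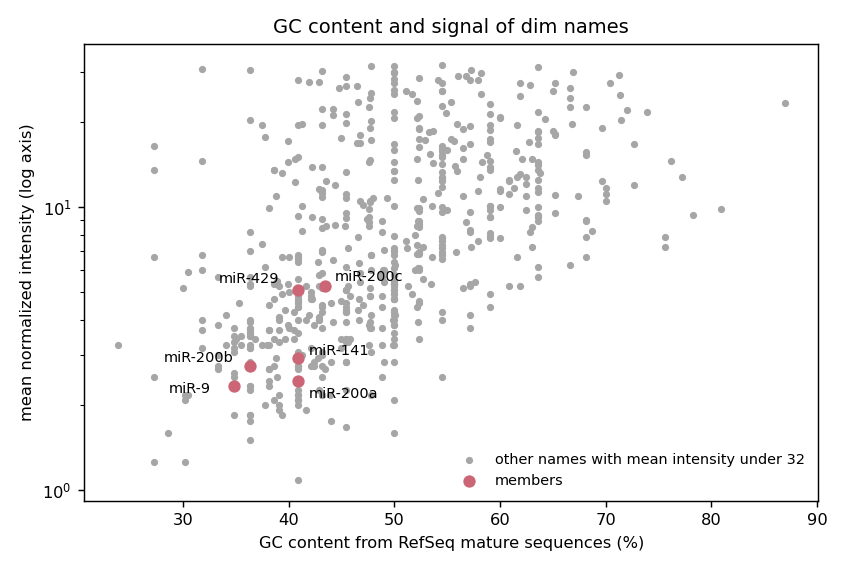
Mean normalized intensity over the 12 samples (log axis) against GC content for the 604 dim names given a GC content from RefSeq. It is exact for members and exactly matched names, and otherwise the mean of both arms. Grey points are other names and red points the 6 members with a sequence. Names with higher GC content tended to be brighter, and the members lie at 34.8% to 43.5% GC, with miR-9, miR-200a and miR-200b below the lower quartile of dim names of like composition.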

How the data were processed

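The table that the authors deposited holds the normalized intensity of each miRNA name in 12 samples, linear and rounded to whole numbers, from arrays run by LC Biosciences; background correction, normalization method and detection calls are not given in the sources used here. Such values near 0 therefore carry no call of presence. Intensities were taken to log2 after a floor of 1. The groups were tested by limma 3.58.1 (R 4.3.3, lmFit and eBayes, two-sided, Benjamini-Hochberg) over the 370 names with a mean of at least 32, and over all 1096 names. For single names, an exact permutation test enumerated 924 assignments. The fit was checked on simulated, normally distributed log2 values with no floor or rounding. That check does not cover signals as low as those of the members. Members and lists were chosen with earlier results of these data known. Named are the 9 members, their starred partners and the 3 brightest names of each list; other names of the lists were chosen after their values were seen. Nearest patterns were planned for members with a mean of 32 or more, and there were none. GC content used the exact RefSeq sequence for members and exact names, and otherwise the mean of both arms. Samples were grouped by their titles and compared unpaired, because the labels do not say which mice were littermates. Alternatives changed the floor, filter, normalization, test, weights, pairing and samples. Plots used matplotlib 3.10.9.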

Additional observations from a re-analysis of the deposited data

How the results depend on the processing

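The settings that joined no filter with another choice and the pseudocount of 5 were added after the data were seen. Of the 9 members 0 reached a mean of 32 in all samples, 0 reached it with any sample left out, and 0 reached the higher limits tried or the median name. The count of members past the unadjusted threshold was 0 where the filter removed them and 1, miR-429, with no filter, alone or with the replicate block, variance trend or array weights; it was 0 with quantile normalization or cyclic loess. Of 207 values of the 9 members under alternatives, 183 kept their direction and side of the threshold, 14 changed sign, 2 of miR-429 kept their direction without passing, and 8 were exactly 0 because the floor of 32 made every sample equal. miR-200b changed to 0.25 with cyclic loess and ran from -0.35 to 0.21 with a sample left out. miR-9 changed to 0.17 with quantile normalization, 0.14 with cyclic loess and 0.0128 with array weights. miR-124 changed to -0.12 with array weights and ran from -0.36, without KO2, to 0.20 with a sample left out. In limma over all names miR-375* had an unadjusted p of 0.0512 with the replicate block at the same log2 change of -0.56, and a change of 0 with a floor of 32. Same-numbered WT and KO samples did not all deviate together (correlations of -0.45 to 0.59). Neither labels nor methods say that the number marks a littermate pair, so the replicate block may not follow the true pairs. The count of names past the adjusted threshold, 5, was 1 with no filter and 115 with array weights. It was 14 with either a variance trend or a pseudocount of 50, and 11 after cyclic loess. Quantile normalization gave 8, the replicate block 4 and Student's t-test on linear values 9. The study's methods name that t-test for the mRNA arrays and no test for the miRNA arrays. With a sample left out the count was 3 to 49: 49 when KO1 was dropped, 11 for WT4, 8 for KO4 and 3 for WT3 or KO2. The cause was not tested.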

Other observations

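Single bright values like that of miR-124 in KO2 were also found among other dim names. Of the 726 names with a mean under 32, 589 had no sample at 32 or more and 59 had exactly 1. That one sample was a KO sample for 46 names and a WT sample for 13. KO2, with the high value of miR-124, held 13 of them, KO4, with that of miR-124*, 10, KO1 9 and KO6 9, whereas no WT sample held more than 4. The dye differs with the genotype here as well, and dye and genotype cannot be told apart. No member had a sample set apart from its group by the gap criterion of Dixon's test on the log2 scale, in 18 groups examined, where chance gives about 0.9. That figure holds for normally distributed values, whereas these are whole numbers with a floor of 1. The log2 scale also narrows the gap of a high value. The result therefore does not show that the high value of miR-124 in KO2 was usual for its group.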
